A study of Homo sapiens with 12 samples.

Results

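The comparison described here is that of MCF10A cells carrying an added wild-type copy of TIP60 with cells carrying the empty vector, both without depletion of the cells' own TIP60. MCF10A is an established, non-tumorigenic human breast epithelial line. All cells of the series stably express either the empty vector (MSCV), a wild-type TIP60 that the siRNA does not target (WT-TIP60), or a catalytically dead TIP60 that the siRNA does not target (KD-TIP60). The lines were transfected with a control or a TIP60-directed siRNA and collected at 72 h, in 2 replicates per group, which makes 12 libraries in 6 groups. The comparison uses 4 of them: WT-TIP60 and MSCV, each with control siRNA, in replicates 1 and 2, taken as 2 same-number pairs. None of these 4 received the TIP60 siRNA, so the wild-type copy comes on top of the endogenous gene. The labels give neither the promoter that drives the copy nor whether a line is 1 clone, and they do not say that the replicates were separate cultures, so p-values measure only the spread between these libraries.

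TIP60, encoded by KAT5, is a lysine acetyltransferase of the MYST family and the catalytic subunit of the NuA4/TIP60 chromatin complex. The complex acetylates histones H4 and H2A and non-histone proteins, and is known for its roles in transcription, the DNA damage response and the p53 pathway. Chromatin state and splicing are coupled in many genes, and a cassette exon, an internal exon that is either kept in the mRNA or skipped, is one place where such coupling can be read.

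The values are summaries from MISO, which sorts the reads at each cassette-exon event by the forms they fit: only the one with the exon, only the one lacking it, both, or neither. An event entered the comparison when at least 10 reads fitted only 1 of the 2 forms in each of the 4 libraries. This held for 3405 of the 8712 events listed in any library, in 2346 genes. Of these events, 3205 lay on primary chromosomes and 200 on alternate or unplaced contigs, many of which are copies of the MHC region that share reads with chromosome 6. Inclusion level, from 0 to 1, is the estimated share of transcripts at the event in which the exon is kept. Event reads are the reads that fit at least 1 form, per 1000000 such reads in the library (RPM). They stand in for expression and are not a gene count.

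The added copy was checked first, in the 1 KAT5 event (ENSG00000172977.12). Its cassette exon is 156 nt of coding sequence, 52 codons that keep the reading frame, at chr11:65713348-65713503 on the plus strand of GRCh38. The exon is printed in capitals, with the last 15 bases of the exon before it and the first 15 of the exon after it in lower case, from a GENCODE 29 transcript, because the constructs differed in the form that lacks it.
KAT5: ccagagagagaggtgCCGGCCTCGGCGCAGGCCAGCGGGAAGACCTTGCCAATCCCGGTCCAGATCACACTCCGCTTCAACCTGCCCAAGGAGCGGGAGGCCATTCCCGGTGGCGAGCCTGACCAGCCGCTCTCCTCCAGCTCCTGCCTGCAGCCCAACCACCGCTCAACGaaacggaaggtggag

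Reads joining the flanking exons without these 156 bases reached 2291 RPM in WT-TIP60 replicate 1 and 93.0 RPM in replicate 2, against 8.38 and 0.731 RPM in the MSCV libraries. The ratios were 273 in replicate 1 (95% exact interval 173 to 462) and 127 in replicate 2 (22.5 to 5064, with 1 read in the MSCV library). These intervals cover counting error only. The form with the exon, in contrast, stood at 11.6 and 5.31 RPM in WT-TIP60 and 17.2 and 5.84 RPM in MSCV, with ratios of 0.673 (0.382 to 1.16) and 0.909 (0.297 to 2.78), so a difference in that form was not detectable at this depth. The inclusion level was 0 and 0.01 in WT-TIP60 and 0.28 and 0.50 in MSCV. The skipped form was also 2.32 and 2.65 times as high in WT-TIP60 as in KD-TIP60 under the same siRNA. Its level in WT-TIP60 replicate 1 was 24.6 times that in replicate 2, so this signal was not alike in the 2 pairs; in MSCV the same ratio was 11.5. With 9 isoform-specific reads in MSCV replicate 2, the KAT5 event itself lies just outside the 3405 events.

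**Figure D1:**
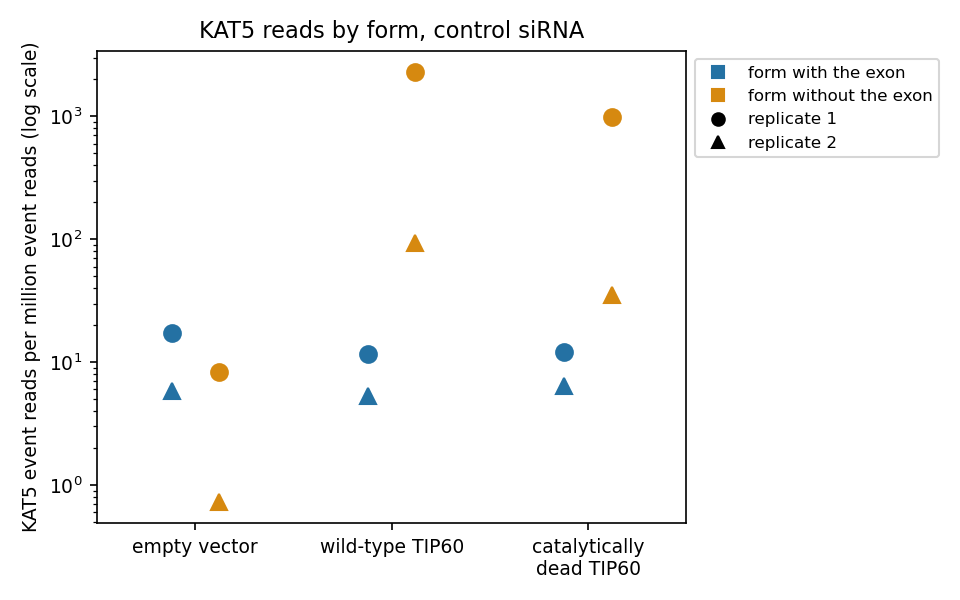
KAT5 reads by form in the 6 control-siRNA libraries, in RPM on a log axis; blue marks the form with the 156-nt exon, orange the form without it, circles replicate 1 and triangles replicate 2. The form without the exon lies at 2291 and 93.0 RPM with wild-type TIP60 and at 8.38 and 0.731 RPM with the empty vector, while the form with the exon lies between 5.31 and 17.2 RPM in both groups.

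The 4 libraries held 1368876 to 2148196 event reads and differed more between the replicate numbers than between the constructs. Reads that fit neither form made up 50.8% and 52.9% of the reads at events in the libraries numbered 1 and 65.4% and 64.6% in those numbered 2. The correlation of inclusion across the 3405 events was 0.977 and 0.973 between the constructs at the same number, and 0.905 and 0.923 between the numbers within a construct. It is a correlation over events, which are not independent replicates, and no p is given. Same-number libraries were therefore compared with each other. Epithelial markers summed to 3923 RPM in MSCV and 5609 RPM in WT-TIP60 in replicate 1 and to 7698 and 9161 RPM in replicate 2, over 14 of 42 genes with a listed event. Mesenchymal markers summed to 261 and 179 RPM and to 167 and 63.1 RPM, over 8 of 27 genes. Not every gene had a listed event in every library, and an unlisted gene adds nothing to a sum. In MSCV and WT-TIP60, 6 and 7 mesenchymal genes were listed in replicate 1 and 5 and 4 in replicate 2. For epithelial genes the numbers were 13 and 14, then 13 and 13. The sums therefore do not all cover the same genes. Immune markers summed to at most 20.5 RPM, over 2 of 20 genes.

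No cassette exon passed the test for a difference in inclusion between wild-type TIP60 and the empty vector. In limma, with group and replicate number in the model and all 12 libraries giving the spread, 0 of 3405 events (0%) had a Benjamini-Hochberg adjusted p under 0.05, and the smallest adjusted p was 0.958. At an unadjusted p under 0.05 there were 154 events (4.52%), of which 81 (2.38%) were higher and 73 (2.14%) lower with wild-type TIP60. A quasi-binomial model of the isoform-specific reads with the same terms called 5 events (0.147%) and had 233 (6.84%) at an unadjusted p under 0.05. The median standard error of an inclusion difference was 0.0335, with quartiles of 0.0190 and 0.0572. Events of 1 gene share reads and are not independent.

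The same picture came from the intervals that MISO gives with each value. In replicate 1 the 95% intervals of the constructs did not overlap for 58 events (1.70%) that were higher and 17 (0.499%) that were lower with wild-type TIP60. In replicate 2 this held for 9 higher (0.264%) and 25 lower (0.734%). No event was separated in the same direction in both pairs (0%), and 3 (0.0881%) were separated in opposite directions: DSC3, a desmosomal cadherin, at 0.02 against 0.14 and 0.58 against 0.41, NDUFV3 and ENTR1. Without the read minimum, 1 event was separated in both pairs, and it was that of KAT5. A difference of at least 0.1 in both pairs was seen in 94 events with the same sign (2.76%), 45 of them higher (1.32%) and 49 lower (1.44%), and in 78 events with opposite signs (2.29%). Across all 3405 events, the difference in replicate 1 and that in replicate 2 had a Pearson correlation of 0.0255. The effect of TIP60 siRNA within MSCV, read by the same 2 numbers, correlated at 0.355, over 3023 events with enough reads. These are descriptions over events, given with no p.

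**Figure D2:**
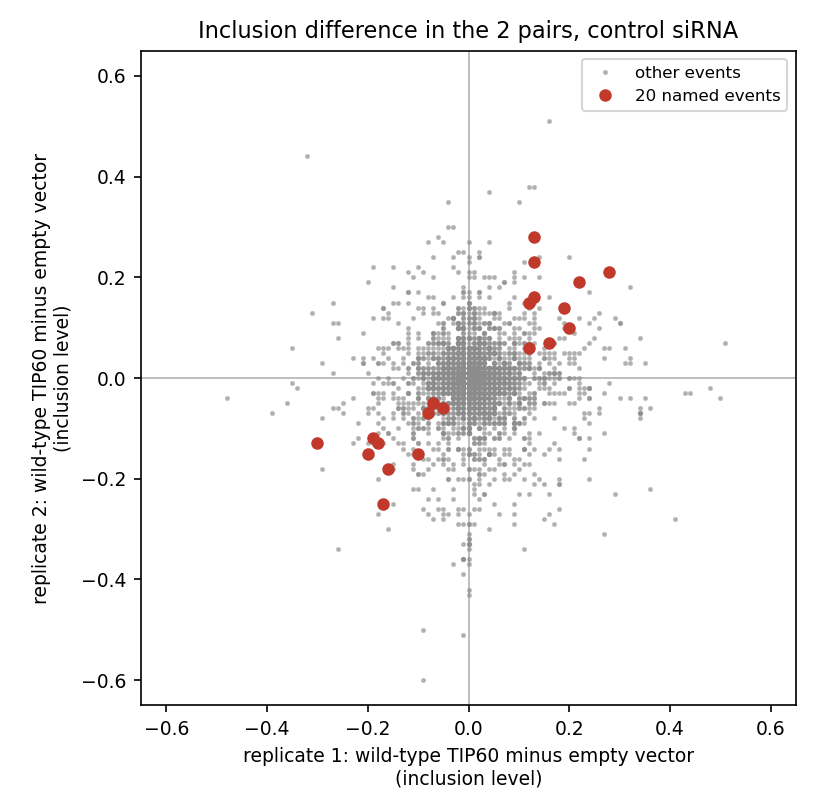
Difference in inclusion level, wild-type TIP60 minus empty vector under control siRNA, in replicate 1 (x axis) against replicate 2 (y axis) for 3405 events, with the 20 named events in red. The cloud has no clear slope (Pearson correlation 0.0255); the red events lie in the upper right and lower left quadrants because they were chosen for having the same sign in both pairs.

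The exons described next are the 10 with the smallest p in each direction among events whose pairs had the same sign, so that shared sign is part of the choice and not a result. Their unadjusted p ran from 0.000465 to 0.00695 and their limma adjusted p from 0.958 to 0.989. None passed, and the values below are descriptions. The exons of AXIN1, HDAC7, C1orf43 and EHMT2 are shown because all 4 keep the reading frame and represent the scaffold, chromatin and most-read cases. Capitals mark the cassette exon and lower case the 15 neighbouring exon bases on each side, 5′ to 3′ on the transcript strand, GRCh38, from GENCODE 29 transcripts.
AXIN1: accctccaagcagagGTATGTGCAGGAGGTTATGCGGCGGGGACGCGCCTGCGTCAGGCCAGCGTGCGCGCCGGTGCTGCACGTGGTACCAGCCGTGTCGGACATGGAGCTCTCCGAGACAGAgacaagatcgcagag
HDAC7: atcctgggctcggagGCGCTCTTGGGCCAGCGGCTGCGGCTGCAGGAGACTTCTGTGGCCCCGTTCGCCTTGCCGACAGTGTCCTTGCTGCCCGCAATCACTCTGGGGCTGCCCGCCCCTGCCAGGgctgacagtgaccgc
C1orf43: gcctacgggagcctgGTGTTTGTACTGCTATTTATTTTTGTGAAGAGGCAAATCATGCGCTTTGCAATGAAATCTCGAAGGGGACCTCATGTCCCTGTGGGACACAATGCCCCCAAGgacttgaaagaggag
EHMT2: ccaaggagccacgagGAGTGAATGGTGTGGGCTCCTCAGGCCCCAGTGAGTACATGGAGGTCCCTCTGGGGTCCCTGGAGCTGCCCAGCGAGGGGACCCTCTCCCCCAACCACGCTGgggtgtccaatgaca

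Among chromatin enzymes, the exon of HDAC7, a class IIa histone deacetylase, is 111 nt (37 codons) at chr12:47795906-47796016 on the minus strand. Its inclusion level was 0.50 in MSCV and 0.78 in WT-TIP60 in replicate 1, and 0.70 and 0.91 in replicate 2. Both WT-TIP60 libraries were above both MSCV libraries, and the fitted difference was 0.245 ± 0.0451 (SE). The reads behind these levels were 50 with and 9 without the exon against 67 and 4 in replicate 1, and 29 and 3 against 32 and 0 in replicate 2. On these reads the quasi-binomial adjusted p was 0.601. Under TIP60 siRNA the same exon stood at 0.29 and 0.29 in replicate 1 and at 0.38 and 0.37 in replicate 2, a difference of -0.005 ± 0.0451. The difference between the siRNAs did not pass (limma adjusted p = 0.917).

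JADE2, a PHD-finger protein found in histone acetyltransferase complexes, has a 129-nt coding exon. It was included at 0.55 in MSCV and 0.67 in WT-TIP60 in replicate 1 and at 0.71 and 0.77 in replicate 2, a difference of 0.09 ± 0.0205. The lower WT-TIP60 library was below the higher MSCV library, so the groups overlapped and only the pairs separated them. JADE2 was covered by 144 to 495 isoform-specific reads per library. They were 119 with and 25 without the exon in MSCV against 184 and 36 in WT-TIP60 in replicate 1. In replicate 2 they were 411 and 84 against 398 and 65. The split of these reads thus differed little between the constructs, and the quasi-binomial unadjusted p was 0.245. KD-TIP60 under control siRNA stood at 0.67 and 0.80, a wild-type minus dead difference of -0.015 ± 0.0205.

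EHMT2, also called G9a, methylates lysine 9 of histone H3, and its 102-nt coding exon (34 codons) lies at chr6:31888969-31889070 on the minus strand. Its inclusion level was 0.92 in MSCV and 0.73 in WT-TIP60 in replicate 1, and 0.88 and 0.76 in replicate 2, a difference of -0.155 ± 0.0327 with 1 of the 12 libraries left out of its fit for low reads. Both WT-TIP60 libraries were below both MSCV libraries. Few reads carry this: the form without the exon had 0 reads in each MSCV library and 4 and 1 in the WT-TIP60 libraries, beside 18 to 41 reads with the exon. In the TIP60 siRNA libraries, which are separate samples, the levels were 0.64 against 0.51 and 0.64 against 0.53, so wild-type TIP60 was the lower one in both of those pairs. The MHC region is repeated on alternate contigs, and 5 events there had exactly the same isoform reads as EHMT2 in the 4 libraries. Of these, 2 are among the 10 lower events, and they add no evidence to that of EHMT2.

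Signalling genes gave examples in both directions. AXIN1 is the scaffold of the complex that marks beta-catenin for destruction, and its exon of 108 nt (36 codons) lies at chr16:291190-291297 on the minus strand. Its inclusion was 0.12 in MSCV and 0.25 in WT-TIP60 in replicate 1 and 0.23 and 0.46 in replicate 2. The lowest WT-TIP60 value was above the highest MSCV value, and the fitted difference was 0.18 ± 0.0357. Both forms were read in every library: 16 with and 49 without the exon against 38 and 43, and 22 and 36 against 48 and 25. The quasi-binomial adjusted p was 0.0795.

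GRB2, the adaptor that links receptor tyrosine kinases to RAS, has a 123-nt coding exon included at 0.97 in MSCV and 0.92 in WT-TIP60 in replicate 1 and at 0.94 and 0.88 in replicate 2, a difference of -0.055 ± 0.0109. Over the 4 libraries 1 read fitted the form without the exon. NKIRAS2, an inhibitor of NF-kappa-B signalling, stood at 0.71 and 0.83 and at 0.64 and 0.79, and all of its 10 to 22 isoform-specific reads per library fitted the form with the exon.

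Such exons, for which every specific read fitted 1 form, made up 911 of the 3405 events (26.8%), and 16 of them had an unadjusted p under 0.05. For them the posterior mean can differ between libraries while the share of specific reads is the same. SLC39A9, a zinc transporter, is the other case among the exons of smallest p. Its inclusion was 0.80 and 0.93 in replicate 1 and 0.57 and 0.73 in replicate 2, on 56, 132, 32 and 32 reads with the exon and 0 without it. The difference in the share of specific reads was 0 for both genes. The fit of SLC39A9 used 10 of the 12 libraries.

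In the DNA damage response, the checkpoint kinase CHEK1 and the BRCA1-A complex subunit UIMC1 were named. The 224-nt exon of CHEK1 was included at 0.55 in MSCV and 0.77 in WT-TIP60 in replicate 1 and at 0.42 and 0.61 in replicate 2, a difference of 0.205 ± 0.0431. The 737-nt exon of UIMC1 stood at 0.84 and 0.54 and at 0.59 and 0.46, a difference of -0.215 ± 0.0542. Each of these rested on at most 2 reads without the exon in any library, and the 95% intervals were wide: that of CHEK1 in WT-TIP60 replicate 2 ran from 0.09 to 0.98. KD-TIP60 under control siRNA stood at 0.73 and 0.60 for CHEK1 and at 0.64 and 0.49 for UIMC1. The wild-type minus dead differences were 0.025 ± 0.0431 and -0.065 ± 0.0542.

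Named exons of adhesion and cytoskeletal genes had lower and higher cases. MACF1 is a giant linker of actin and microtubules, and its 111-nt coding exon was included at 0.16 in MSCV and 0.06 in WT-TIP60 in replicate 1 and at 0.24 and 0.09 in replicate 2. Both WT-TIP60 values were below both MSCV values, a difference of -0.125 ± 0.0277, and both forms had reads in every library. The reads with the exon were 56, 16, 13 and 3 in that order, and the quasi-binomial adjusted p was 0.0525.

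CTNND1, the p120-catenin that stabilises cadherins, has a partly coding exon of 119 nt at 0.54 and 0.37 and at 0.48 and 0.23, a difference of -0.21 ± 0.0316 in a fit with 8 of the 12 libraries. CLSTN1, a membrane protein that binds kinesin, is not among the exons of smallest p above and was named from the epithelial-mesenchymal gene list. Its 30-nt exon was at 0.14 in MSCV and 0.04 in WT-TIP60 in replicate 1 and at 0.13 and 0.04 in replicate 2. In KD-TIP60 the CLSTN1 exon was at 0.20 and 0.12, above both WT-TIP60 libraries, with a wild-type minus dead difference of -0.12 ± 0.0241. Under TIP60 siRNA it lay between 0.02 and 0.04 in both constructs.

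Higher in this class were ARHGAP8 and ITGB6, the beta-6 integrin subunit. ARHGAP8 stood at 0.77 and 0.97 in replicate 1 and at 0.79 and 0.89 in replicate 2, a difference of 0.15 ± 0.0291. ITGB6 stood at 0.72 and 0.85 and at 0.52 and 0.80, a difference of 0.205 ± 0.0432 in a fit with 11 libraries. In both genes each WT-TIP60 library was above both MSCV libraries, on at most 3 reads without the exon in any library. KD-TIP60 under control siRNA stood at 0.88 and 0.87 for ARHGAP8 and at 0.82 and 0.77 for ITGB6. The wild-type minus dead differences were 0.055 ± 0.0291 and 0.03 ± 0.0432.

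Of the 20 exons, the one with the most isoform-specific reads was that of C1orf43, 102 nt (34 codons) at chr1:154219836-154219937 on the minus strand. It had 565 reads with and 130 without the exon in MSCV against 1015 and 100 in WT-TIP60 in replicate 1, and 953 and 175 against 986 and 118 in replicate 2. The inclusion level was 0.58 against 0.74 and 0.71 against 0.78, a difference of 0.115 ± 0.0270. Its quasi-binomial adjusted p, on the isoform-specific reads, was 0.00072, while limma on the inclusion level gave an adjusted p of 0.958. Under TIP60 siRNA the levels were 0.65 against 0.63 and 0.68 against 0.72.

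The other 4 events called by the quasi-binomial model belonged to RPLP0, a protein of the large ribosomal subunit, and LRRC75A-AS1, a host transcript of small nucleolar RNAs, with 2 overlapping events each. The better-covered RPLP0 exon had 170 reads without it in MSCV and 67 in WT-TIP60 in replicate 1, beside 15250 and 16719 with it, and 15 and 16 in replicate 2. Its inclusion level was 0.95 against 0.98 and 0.99 against 0.99. The other RPLP0 exon, of 78 nt, was at 0.86 against 0.95 and 0.57 against 0.69, higher in both pairs, with 158 and 54 and then 15 and 16 reads without it. Its limma unadjusted p was 0.169. In LRRC75A-AS1 the form without the exon had 624 and 840 reads in replicate 1 and 1 and 1 in replicate 2, so nearly all reads of that form came from 1 pair.

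ORMDL1, a regulator of sphingolipid synthesis, had the smallest unadjusted p, 0.000465, at a UTR exon of 110 nt. Its inclusion was 0.50 in MSCV and 0.34 in WT-TIP60 in replicate 1 and 0.60 and 0.42 in replicate 2, a difference of -0.17 ± 0.0256 (limma adjusted p = 0.958). Both forms were read in all 4 libraries, with 7 against 15 and 8 against 12 reads without the exon. On these reads the quasi-binomial unadjusted p was 0.0449 and the adjusted p 0.703. Under TIP60 siRNA the levels were 0.33 against 0.33 and 0.41 against 0.49, and KD-TIP60 under control siRNA stood at 0.38 and 0.44, a wild-type minus dead difference of -0.03 ± 0.0255. The difference between the siRNAs was 0.21 ± 0.0362 and did not pass (limma adjusted p = 0.913).

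The other exons of the 20 were those of CPPED1, SDR39U1 and PDCD10. CPPED1, a phosphatase, was at 0.99 and 0.92 and at 0.98 and 0.93, with 0 and 5 and then 1 and 4 reads without the exon. KD-TIP60 had the levels of the vector at this exon, 0.98 and 0.99, and the wild-type minus dead difference of -0.06 ± 0.0111 did not pass (limma adjusted p = 0.813). SDR39U1, of the short-chain dehydrogenase family, was at 0.72 and 0.91 and at 0.74 and 0.88, a difference of 0.165 ± 0.0386, and both WT-TIP60 libraries were above both MSCV libraries. PDCD10, a protein of the cerebral cavernous malformation complex, was at 0.23 and 0.15 and at 0.34 and 0.27 at a UTR exon of 73 nt, and its groups overlapped across pairs.

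**Figure D3:**
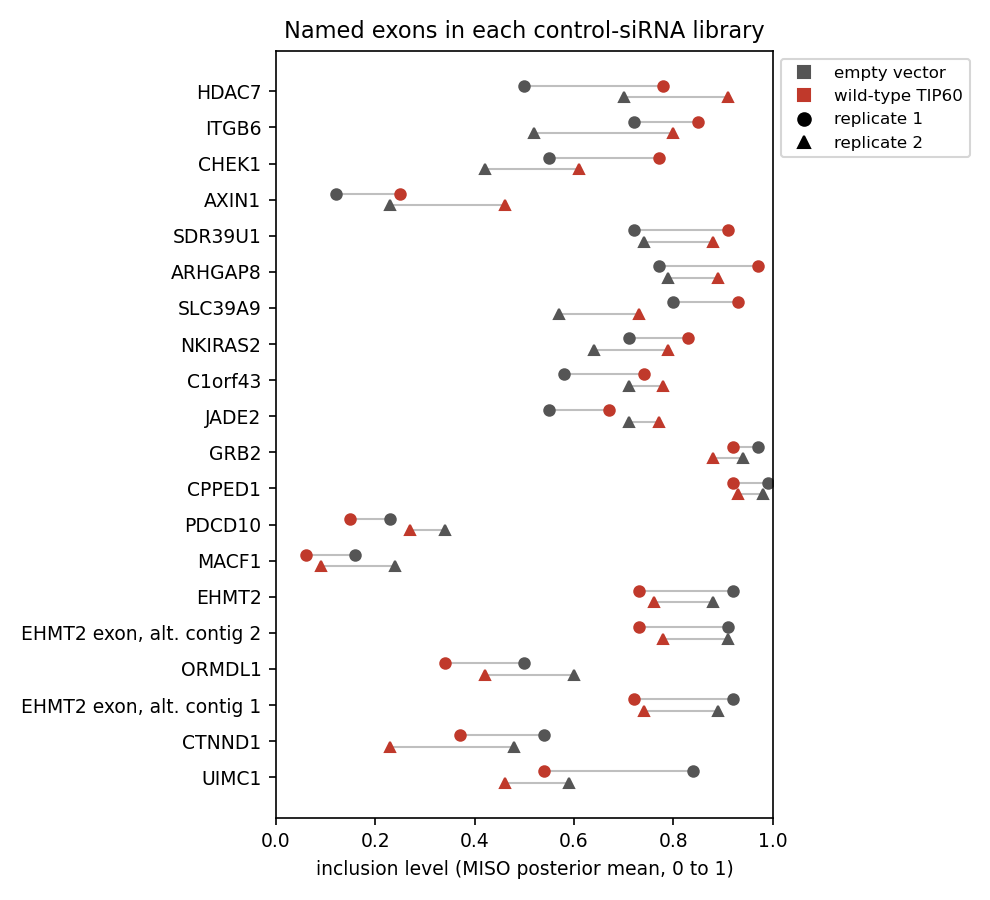
Inclusion level of the 20 named exons in the 4 control-siRNA libraries, with grey for empty vector, red for wild-type TIP60, circles for replicate 1 and triangles for replicate 2; lines join same-number libraries. HDAC7, AXIN1 and ARHGAP8 show both red points to the right of both grey points, EHMT2 and MACF1 both to the left, and the 2 contig copies repeat the reads of EHMT2.

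The TIP60 siRNA libraries hold the same construct contrast in 4 other samples. Of the 10 higher exons 8 had the same sign under TIP60 siRNA, and of the 9 lower ones with a fitted value 5 did. The sign held in both TIP60 siRNA pairs for 4 of 9 higher and 5 of 10 lower exons. The pair counts here put no read minimum on the TIP60 siRNA libraries, so they include CTNND1, which had no fitted value there. With EHMT2 and its 2 contig copies counted once, the lower exons gave 3 of 7 and 3 of 8: GRB2, EHMT2 and PDCD10. Over all events with a value the sign was shared by 1521 of 3345 (45.5%), with differences of 0 counted as not shared, and held in both pairs for 691 of 3350 (20.6%). All events include those whose control pairs differ in sign, whereas the named exons were chosen for a shared sign. The shares are therefore not a like-for-like background. In limma 0 of 3345 events passed for that contrast (187, or 5.59%, at an unadjusted p under 0.05), 0 of 3380 for the difference between the siRNAs (139, or 4.11%), and 0 of 3405 for WT-TIP60 against KD-TIP60 under control siRNA (100, or 2.94%).

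Described by gene list, inclusion showed no group with a member that passed. Among genes of chromatin acetylation and remodelling, 48 events in 30 genes had a median difference of 0.02, with 18 events higher and 5 lower in both pairs, and 4 (8.33%) had an unadjusted p under 0.05. These were HDAC7, JADE2, EHMT2 and SMARCC2, a core subunit of SWI/SNF remodellers, whose 66-nt exon was at 0.84 in MSCV and 0.95 in WT-TIP60 in replicate 1 and at 0.66 and 0.79 in replicate 2. Over all 3405 events the median difference was 0, with 629 higher and 596 lower in both pairs and 4.52% under that p. The DNA damage response list had 5 of 31 events under it (16.1%), 1 higher and 4 lower, with a median of -0.01. Beside CHEK1 and UIMC1 they were 2 exons of BABAM2, a subunit of the same BRCA1-A complex as UIMC1, and 1 of TDG, a DNA glycosylase. The 174-nt exon of BABAM2 was at 0.12 and 0.07 in replicate 1 and at 0.16 and 0.07 in replicate 2, and that of TDG at 0.92 and 0.84 and at 0.90 and 0.84.

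The actin, adhesion and cytoskeleton list had 8 of 100 events (8%), 2 higher and 6 lower. The list of genes of the epithelial-mesenchymal splicing programme had 6 of 78 events (7.69%), 2 higher and 4 lower. Every event of these 35 genes was counted, whether or not that exon is known to switch. Both lists had medians within 0.005 of 0. MARK3, a polarity kinase, and MYO6, a myosin that moves towards the minus end of actin, each have a 27-nt exon in the actin, adhesion and cytoskeleton list. That of MARK3 was at 0.36 and 0.26 and at 0.41 and 0.31, and that of MYO6 at 0.12 and 0.03 and at 0.18 and 0.08. In both, each WT-TIP60 library was below its same-number MSCV library. SYNE2, a nuclear envelope spectrin-repeat protein, was at 0.30 and 0.25 and at 0.51 and 0.23, so that most of its difference came from replicate 2. SPTAN1, the alpha-II spectrin, has a 15-nt exon at 0.07 and 0.21 and at 0.22 and 0.25. These and the other list members outside the 20 named exons were picked for their p after their values were seen.

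Of 12 events in SR proteins, which bind exons and promote their use, 1 had an unadjusted p under 0.05: a UTR exon of TRA2A at 0.08 in MSCV and 0.33 in WT-TIP60 in replicate 1 and at 0.13 and 0.25 in replicate 2, in a fit with 10 libraries. Of 49 events in hnRNPs and other regulators, 2 did (4.08%). HNRNPD, which binds AU-rich RNA, was at 0.92 and 0.84 and at 0.83 and 0.81. SF1, which recognises the branch point, was at 0.28 and 0.43 and at 0.46 and 0.50. Under that p there were 0 of 6 events in other NuA4/TIP60 subunits, 1 of 48 in the p53 and apoptosis list (PDCD10), 2 of 36 in the cell cycle list (SKA2 and CCND3), 1 of 27 in the interferon list (HLA-F), 3 of 23 in lipid synthesis (AGPAT4, INSIG1 and ACSL3) and 1 of 19 in RNA decay and translation (EIF4H). Among 22 events in epithelial markers there were 2, in SPINT2 and TP63. TP63, the master regulator of basal epithelial cells, was at 0.59 and 0.83 and at 0.69 and 0.80, with every specific read in the form with the exon.

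No exon passed in any class of length, frame or position. An unadjusted p under 0.05 was found in 5.33% of 225 exons of up to 50 nt, in 4.45% of 2812 exons of 51 to 250 nt and in 4.62% of 368 longer ones. Frame-keeping exons (4.47% of 1948) and frame-shifting exons (4.60% of 1457) had similar shares, as had coding (4.40% of 2411) and UTR exons (5.26% of 323). The median difference was within 0.005 of 0 in each of these classes. Exons with mean inclusion between 0.1 and 0.9 had 7.48% of 1697 under that p, against 1.94% of 1187 above and 0.768% of 521 below that range.

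Event reads, the stand-in for expression, gave no gene that passed either. In limma on log2(RPM + 0.5), 0 of 3405 events (0%) had an adjusted p under 0.05, the smallest adjusted p was 0.999, and 131 events (3.85%) had an unadjusted p under 0.05, 77 higher (2.26%) and 54 lower (1.59%). No count model was run on this measure. With the 4 libraries alone in limma, 2 events passed, MYL9 and CAVIN3, both lower with wild-type TIP60 (adjusted p = 0.0278 each). With so few libraries, that fit took the spread of an event mostly from the other events. Its SE was 0.38 for MYL9 and 0.36 for CAVIN3, against 0.53 and 0.44 with all 12 libraries. The limma unadjusted p with all 12 libraries were 0.0132 and 0.00601. The 2 pairs were negatively correlated over events, with a Pearson correlation of -0.258, while the effect of TIP60 siRNA within MSCV correlated at 0.576. A 2-fold or larger difference in both pairs was found for 3 events higher and 3 lower (0.176% in all), and in opposite directions for 29 (0.852%). The higher ones were in PYCR1, IFRD1 and NONO (0.0881%) and the lower ones in ECM1, MYL9 and CHEK1 (0.0881%). IFRD1 was at 16.8 and 34.3 RPM and at 12.4 and 34.5 RPM, NONO at 8.84 and 20.7 RPM and at 10.2 and 24.6 RPM, and the CHEK1 event, another than the one above, at 71.2 and 34.3 RPM and at 15.3 and 7.31 RPM; these 3 were picked after their values were seen. The PYCR1 event counted here, at 28.9 and 67.6 RPM and at 54.8 and 112.3 RPM, is not the PYCR1 event with the most reads. In bulk RNA, fewer cells with a transcript and less of it per cell cannot be told apart.

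**Figure D4:**
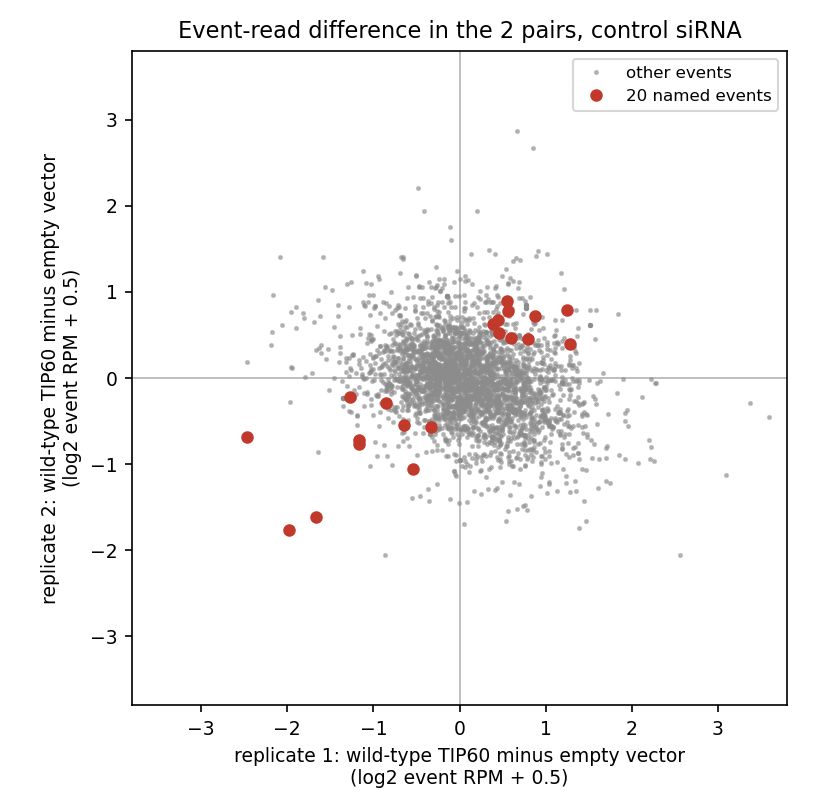
Difference in log2(event RPM + 0.5), wild-type TIP60 minus empty vector under control siRNA, in replicate 1 (x axis) against replicate 2 (y axis), for 3405 events; the 20 named events are red and were chosen for having the same sign in both pairs. The cloud leans from upper left to lower right (Pearson correlation -0.258). ECM1 and MYL9 are the red points lowest in replicate 2, and CAVIN3, at -2.47, is the red point farthest left in replicate 1.

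Matrix, contractile and caveolar genes had the largest named differences. ECM1, an extracellular matrix glycoprotein, was at 65.2 RPM in MSCV and 16.1 RPM in WT-TIP60 in replicate 1 and at 35.1 and 9.96 RPM in replicate 2, a log2 difference of -1.87 ± 0.39 (SE). Both WT-TIP60 libraries were below both MSCV libraries. KD-TIP60 stood between them, at 21.6 and 24.9 RPM, and under TIP60 siRNA the log2 difference between wild-type TIP60 and the vector was -0.30 ± 0.39.

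MYL9, a regulatory light chain of smooth-muscle and non-muscle myosin, was at 549.8 and 173.5 RPM in replicate 1 and at 252.8 and 82.4 RPM in replicate 2. The log2 differences of the pairs, -1.66 and -1.61, were nearly equal, and the fitted SE was 0.53. In the TIP60 siRNA libraries MYL9 was again lower with wild-type TIP60, at 385.2 against 125.3 RPM and 86.4 against 58.8 RPM. KD-TIP60 under control siRNA was below the same-number vector libraries too, at 237 and 193 RPM, with a wild-type minus dead difference of -0.84 ± 0.53. CAVIN3, a coat protein of caveolae, was at 389.6 and 70.1 RPM and at 650.9 and 405.2 RPM, a log2 difference of -1.57 ± 0.44 that was much larger in replicate 1 (-2.47) than in replicate 2 (-0.68).

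TPM3, a tropomyosin, stood at 4472 and 1852 RPM in replicate 1 and at 2617 and 2241 RPM in replicate 2. NRP1, a co-receptor for semaphorins and VEGF, was at 316.5 and 141.2 RPM and at 185.6 and 108.9 RPM, with a log2 difference of -0.96 ± 0.27. F3, the tissue factor that starts coagulation, was at 2211 and 1522 RPM and at 1479 and 710.1 RPM. For NRP1 and TPM3 both WT-TIP60 libraries were below both MSCV libraries, whereas for F3 the ranges overlapped across pairs. TPM3 differed mostly in replicate 1.

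Fibronectin, FN1, a matrix protein and mesenchymal marker, was at 168.5 and 92.3 RPM in replicate 1 and at 43.1 and 9.96 RPM in replicate 2, a log2 difference of -1.46 ± 0.54. In the TIP60 siRNA libraries it was at 376.6 against 171.4 RPM and 135.7 against 15.4 RPM, a difference of -2.12 ± 0.54. KD-TIP60 under control siRNA had 234.7 and 83.0 RPM, each above the same-number MSCV library, and the wild-type minus dead difference was -2.17 ± 0.54. FN1 is the 1 mesenchymal marker with an event of the comparison, and it was lower with wild-type TIP60 in both TIP60 siRNA pairs too.

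The remaining lower genes were the homeobox gene IRX5, the eIF4E kinase MKNK1, RAB5IF and the read-through transcript PALM2-AKAP2, whose reads cannot be assigned between its overlapping genes. Their log2 differences were -0.95, -0.59, -0.57 and -0.45. Under TIP60 siRNA, MKNK1 had a difference of 0.05 ± 0.18 and IRX5 one of -0.63 ± 0.30.

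Of the higher genes, RPL12, a protein of the large ribosomal subunit, was at 2179 RPM in MSCV and 3185 RPM in WT-TIP60 in replicate 1 and at 218.4 and 406.5 RPM in replicate 2, a log2 difference of 0.72 ± 0.18. RPL10, of the same subunit, was at 2838 and 3726 RPM and at 1251 and 1937 RPM. RPL17-C18orf32, a read-through of a ribosomal protein gene whose reads cannot be split from it, was at 2389 and 3244 RPM and at 731.3 and 1165 RPM. The levels of these genes differed more between the replicate numbers than between the constructs. KD-TIP60 under control siRNA was also above the same-number vector library for each of them. It stood at 2768 and 364.6 RPM for RPL12, 4022 and 1888 RPM for RPL10, and 3039 and 1039 RPM for RPL17-C18orf32.

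LRRC75A-AS1, ZFAS1 and C6orf48 are host transcripts of small nucleolar RNAs. LRRC75A-AS1 was at 1813 and 2751 RPM and at 2843 and 3926 RPM, a log2 difference of 0.53 ± 0.13. The gene is named as antisense, and whether the reads were counted by strand is not given in the sources used here. ZFAS1 was at 220.2 and 382.2 RPM and at 264.5 and 363.4 RPM, and C6orf48 at 173.2 and 422.0 RPM and at 753.2 and 993.1 RPM. In the TIP60 siRNA libraries all 3 were again higher with wild-type TIP60, with log2 differences of 0.36 ± 0.13, 0.66 ± 0.19 and 1.10 ± 0.26, and none passed. KD-TIP60 under control siRNA was also above the same-number vector library for all 3. It stood at 2967 and 3740 RPM, 315.9 and 327.5 RPM, and 376.0 and 951.9 RPM. The wild-type minus dead differences were -0.02 ± 0.13, 0.21 ± 0.19 and 0.11 ± 0.26, so these genes did not set the wild-type copy apart from the dead one.

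The other higher genes were PYCR1, a proline synthesis enzyme, RBCK1, a subunit of the linear ubiquitin ligase, PLLP, a membrane protein also called plasmolipin, and ECSIT, which helps to assemble mitochondrial complex I. PYCR1 was at 176.0 and 323.2 RPM and at 328.7 and 540.7 RPM, and RBCK1 at 329.1 and 452.8 RPM and at 1098 and 1574 RPM. PLLP was a low-abundance case in replicate 1, at 11.2 and 27.2 RPM, and stood at 73.1 and 126.9 RPM in replicate 2. ECSIT had a log2 difference of 0.67 ± 0.20 under control siRNA and 0.03 ± 0.20 under TIP60 siRNA.

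**Figure D5:**
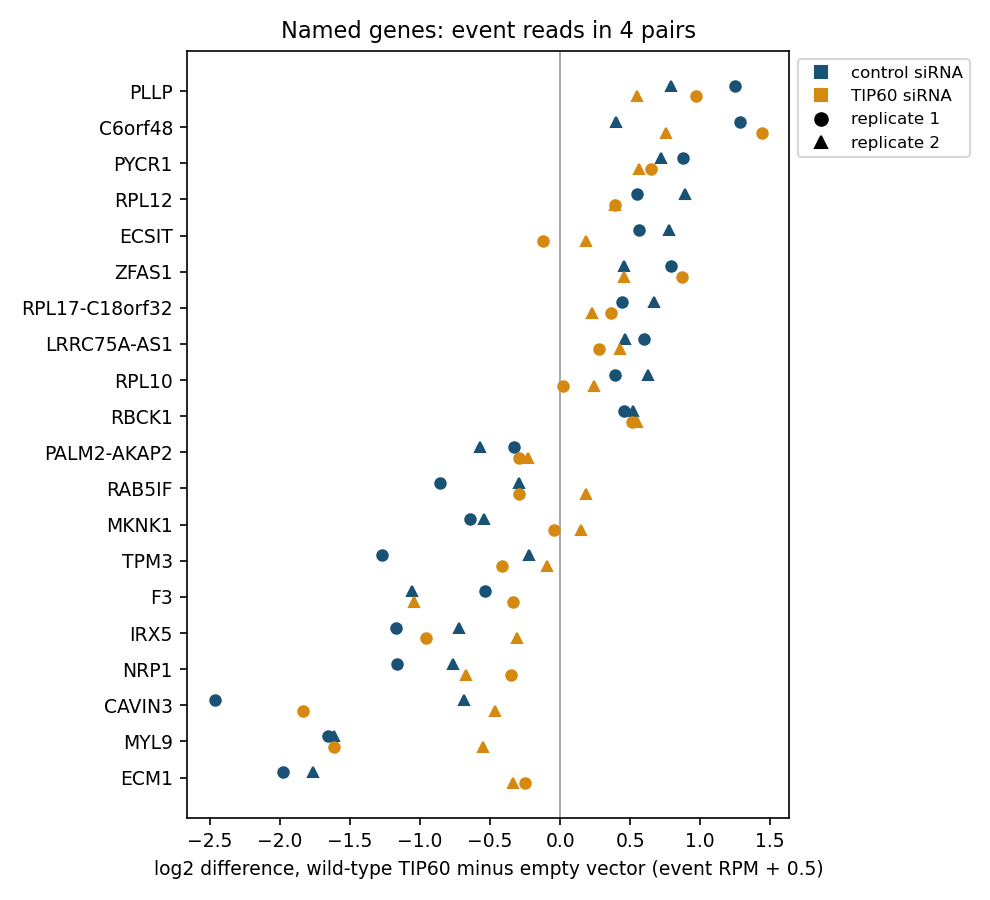
Log2 difference in event RPM + 0.5, wild-type TIP60 minus empty vector, for the 20 named genes in 4 same-number pairs; blue marks control siRNA, orange TIP60 siRNA, circles replicate 1 and triangles replicate 2. The blue points of each gene share their sign by choice; for MYL9 and C6orf48 the orange points lie on the same side of 0, while ECM1 has orange points between -0.5 and 0.

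Event-read differences had the same sign in the TIP60 siRNA libraries for 10 of the 10 higher and 9 of the 10 lower genes, and in both pairs for 9 and 8. Over all events the sign was shared by 2052 of 3403 (60.3%), and in both pairs by 954 of 3350 (28.5%). Unlike the named genes, these events were not chosen for a shared sign in the control pairs. None of the 20 passed under TIP60 siRNA (limma adjusted p from 0.274 to 0.985), and for that contrast 0 of 3403 events passed, with 297 (8.73%) at an unadjusted p under 0.05. The difference between the siRNAs passed for 0 of 3404 events (111, or 3.26%, under 0.05), and WT-TIP60 against KD-TIP60 for 0 of 3405 (40, or 1.17%).

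INSIG1, which holds back sterol synthesis, had opposite signs under the siRNAs. Under control siRNA it was at 507.4 RPM in MSCV and 257.7 RPM in WT-TIP60 in replicate 1 and at 293.7 and 175.4 RPM in replicate 2. Under TIP60 siRNA it was at 81.6 and 203.0 RPM and at 113.7 and 174.3 RPM. The vector cells thus spanned 81.6 to 507.4 RPM over the siRNAs and the wild-type cells 174.3 to 257.7 RPM, and the difference between the siRNAs, 1.82 ± 0.43 on the log2 scale, did not pass (limma adjusted p = 1.00).

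The gene lists were counted with the event of most reads standing for each gene. Epithelial markers had 7 of 13 genes higher and 1 lower in both pairs, with a median log2 difference of 0.25, against 452 higher and 438 lower of 2346 genes and a median of 0.01 over all genes. ITGB4, the hemidesmosome integrin, was at 667.1 and 1153 RPM and at 1868 and 2585 RPM, a log2 difference of 0.63 ± 0.21. CLDN7, a tight-junction claudin, was at 313.3 and 452.3 RPM and at 288.6 and 484.3 RPM. ESRP1, an epithelial splicing regulator, was at 265.3 and 264.2 RPM in replicate 1 and at 161.4 and 312.9 RPM in replicate 2, so it differed in 1 pair. None of the 13 passed.

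In the p53 and apoptosis list 1 of 29 genes had an unadjusted p under 0.05. It was BBC3, the p53 target PUMA, at 54.0 and 87.2 RPM in replicate 1 and at 168.8 and 366.7 RPM in replicate 2, a log2 difference of 0.90 ± 0.34. The actin, adhesion and cytoskeleton list had 7 of 51 genes under that p, 1 higher and 6 lower, beside 70 of 2346 (2.98%) over all genes. Of the 3 other NuA4/TIP60 subunits with an event, 1 was under it: MORF4L2, at 3602 and 2380 RPM and at 2007 and 1608 RPM, a log2 difference of -0.46 ± 0.16. With 1 event per gene, the DNA damage response (0 of 25), SR proteins (0 of 8), hnRNPs and other regulators (0 of 30) and the interferon response (0 of 12) had none under it. Other events of ERCC1, CHEK1 and IFNGR2 were under it, with log2 differences of 0.82, -1.03 and 0.64. Chromatin acetylation and remodelling had 1 of 30, MTA1, a NuRD subunit, at 18.6 and 35.8 RPM and at 41.6 and 61.8 RPM.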

How the data were processed

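RNA from MCF10A cells was sequenced after a stranded mRNA library kit, per the labels' protocols, and reads were aligned with STAR to hg38, per the submitters' processing notes. Per the file headers, the deposited tables are MISO summaries of cassette-exon events, 1 per library. The authors deposited inclusion as a fraction, the MISO posterior mean with its interval, per the file headers, and raw numbers of reads by isoform class. No source used here states the MISO version, event annotation or read filters.

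From the deposited classes, event reads (fitting at least 1 form) were summed and scaled to RPM. Events were placed on GENCODE 29 genes by matching exons and exon boundaries, or by overlap where none matched, and exon sequences were cut from its transcripts. The authors' deposited values were tested with limma 3.58.1 in R 4.3.3 (trend and robust options), with 6 groups and the replicate number as block, on inclusion and on log2(RPM + 0.5). A library that did not list an event was missing in its fit, which affected 105 read fits. For inclusion, values with fewer than 10 specific reads were missing as well, so that 710 of 3405 inclusion fits lacked a library (at least 5 libraries remained). Tests were two-sided with Benjamini-Hochberg adjustment at 0.05. The script was tested on simulated data. Same-number libraries deviated together from their group means (r from 0.706 to 0.779 for inclusion and from 0.533 to 0.921 for log2 event reads, over 15 pairs of groups), which is why the numbers pair the libraries; the labels do not say what a number marks.

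Named events are up to 10 per direction and measure, by smallest p with both pairs of the same sign (for event reads 1 event per gene), plus the 2 members of smallest p in each gene list. The members and the lists were chosen with earlier results of these data known. Alternatives covered the block, read minimum, libraries, scale, pseudocount, model and each replicate left out. Depth limits the precision: isoform-specific reads had a median of 54 to 87 per library, and the interval a median width of 0.13 to 0.19.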

Additional observations from a re-analysis of the deposited data

How the results depend on the processing

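For inclusion, the count of passing events was 0 in the reported limma fit and 0 without the replicate block (65 events at an unadjusted p under 0.05, against 154 with it); for event reads it was 0 with and 0 without the block (4 against 131). The pairing therefore changed no call. Inclusion passed for 5 events in the quasi-binomial model and for 1 in limma on the share of isoform-specific reads (KRIT1, 144-nt exon, adjusted p = 0.0292). Leaving out each replicate in turn gave 0 to 18 events for inclusion and 0 for event reads. The 18 arose without MSCV siControl replicate 1, 2 higher and 16 lower, where the lone MSCV library is assumed to vary like the other groups: 15 of them are C6orf48 or lie on alternate contigs of chromosome 6, and the others are EIF3K, NPM1 and ERBIN. The cause was not tested. Event reads passed for 2 events with only the 4 libraries of the comparison in the fit. Events apart in both pairs numbered 94 when a difference of at least 0.1 in each pair replaced the interval rule, 1 (KAT5) with no read minimum, and 0 under the other settings tried. The contrast averaged over both siRNAs, chosen after seeing the data, passed for 0 events in either measure. Of 538 values of the named differences under the alternatives, 0 reversed, 3 passed the threshold (C1orf43 in the quasi-binomial model, CAVIN3 and MYL9 with 4 libraries) and 2 became 0 (SLC39A9 and NKIRAS2 as shares of reads).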
